A study of Mus musculus with 10 samples.

Results

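Integrins and laminins were described through 31 genes among the 12394 measured on mouse mammary gland arrays. The members were all genes whose single annotated symbol names an integrin alpha or beta subunit or a laminin alpha, beta or gamma chain. They comprised 21 integrin genes, 14 for alpha and 7 for beta subunits, and 10 laminin genes, 5 for alpha, 3 for beta and 2 for gamma chains. Each gene was read from 1 probe set, the one with the highest mean over the arrays. The rule used symbols and mean level, not any difference between groups.

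RNA from sorted cells of FVB/N mice was measured on 10 single-colour Affymetrix arrays. Control fibroblasts (COF, 3 arrays) came from mammary glands of wild-type mice. Cancer-associated fibroblasts (CAF, 3 arrays) and the cells labelled TEC (2 arrays) and CSC (2 arrays) came from mammary tumours of mice with the genotype label WAPCre-DNbcatn;HGF. The study compared CAF with COF and CSC with TEC, and looked for ways in which CAF and CSC could interact. The genotype label names Cre under the promoter of the milk protein gene Wap, a beta-catenin construct and HGF, the ligand of the Met receptor. The controls carried no transgene in their label, so tumour and transgenes cannot be told apart between CAF and COF. One label field of the TEC samples reads TEFs. Age, gating and the number of animals are not given in the sources used here, so p-values measure only the spread between these samples, which may be technical.

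Integrins are cell surface receptors made of 1 alpha and 1 beta subunit that bind matrix proteins or counter-receptors on other cells and connect them to the cytoskeleton. Laminins are trimers of an alpha, a beta and a gamma chain and form the scaffold of basement membranes. In the mammary gland, epithelial cells rest on a laminin-rich basement membrane through integrins with the Itgb1 and Itgb4 subunits, and the pair of Itga6 and Itgb4 anchors hemidesmosomes. Itgb2 and its alpha partners Itgal, Itgam and Itgax are restricted largely to leukocytes.

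Markers of other cell types moved with the groups. The median log2 value of 12 pan-fibroblast genes was 13.16 to 13.44 on COF and 12.96 to 13.02 on CAF arrays, 8.82 on TEC replicate 1, 11.34 on TEC replicate 2, and 8.38 and 8.29 on the CSC arrays. Among them the collagen gene Col1a1 stood at 9.63 on TEC replicate 1 and 12.55 on TEC replicate 2. The median of 15 pan-epithelial genes was 6.19 to 6.54 on COF, 6.72 to 6.93 on CAF, 9.24 and 9.61 on TEC, and 12.11 and 12.03 on CSC arrays. The median of 12 leukocyte genes was 5.25 to 5.63 on COF, 5.94 to 7.27 on CAF, 12.64 and 12.18 on TEC, and 9.98 and 9.22 on CSC arrays. TEC and CSC arrays thus carried the genes of this leukocyte list above the fibroblast arrays, and TEC more than CSC. The median of 14 macrophage genes was 5.27 to 5.45 on COF and 6.36 to 6.90 on CAF arrays. It was 11.9 and 11.8 on TEC and 12.1 and 11.6 on CSC arrays, so TEC and CSC overlapped on that list. The SD of gene-by-gene differences was 0.550 between the TEC arrays and 0.145 to 0.369 between other arrays of a group. As a check of RNA quality, Actb probe sets at the 3' end exceeded those at the 5' end by 0.320 and 0.462 in TEC and by 0.592 to 0.762 in the other groups on the log2 scale, while for Gapdh the excess was 0.241 to 0.301 in TEC and CSC and 0.052 to 0.152 in the fibroblasts. In bulk RNA, fewer cells of a type and less RNA per cell cannot be told apart. The part of these marker and quality differences in the results was not tested.

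Promoter sequences were at hand for 19 of the 31 members, as 22 windows from 250 bases before to 50 bases after a start, from RefSeq on GRCm38.p6. A window is shown for Lama2, the laminin alpha chain with the greatest difference between CAF and COF, and for Lamb3, the chain with the greatest rise from TEC to CSC among the laminins with a window. Windows are also shown for Itgam and Itgax, neighbouring genes on chromosome 7 that differed in the same direction between CSC and TEC. Capitals mark matches on either strand to 4 motifs, AP-1 (TGANTCA), an E-box (CAGGTG), a GC box (GGGCGG) and the CArG box. No matches to different motifs overlapped in these 4 windows. The Lama2 window lies on the minus strand at chr10:27616893-27617192. The Lamb3 window lies on the plus strand at chr1:193301993-193302292 and belongs to 1 of its 2 listed starts. The Itgam and Itgax windows lie on the plus strand at chr7:128062390-128062689 and chr7:128129300-128129599.
Lama2: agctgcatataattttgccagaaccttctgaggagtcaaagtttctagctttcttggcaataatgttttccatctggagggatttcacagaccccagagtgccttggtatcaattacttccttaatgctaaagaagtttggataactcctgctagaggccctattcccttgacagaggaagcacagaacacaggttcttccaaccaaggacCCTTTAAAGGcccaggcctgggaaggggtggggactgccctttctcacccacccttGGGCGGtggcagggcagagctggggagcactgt
Lamb3: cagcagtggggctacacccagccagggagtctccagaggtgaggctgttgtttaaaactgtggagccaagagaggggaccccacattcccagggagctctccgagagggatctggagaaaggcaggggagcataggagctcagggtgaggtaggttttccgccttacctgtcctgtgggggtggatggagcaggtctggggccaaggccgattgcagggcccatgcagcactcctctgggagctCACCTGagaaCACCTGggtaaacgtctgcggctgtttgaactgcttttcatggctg
Itgam: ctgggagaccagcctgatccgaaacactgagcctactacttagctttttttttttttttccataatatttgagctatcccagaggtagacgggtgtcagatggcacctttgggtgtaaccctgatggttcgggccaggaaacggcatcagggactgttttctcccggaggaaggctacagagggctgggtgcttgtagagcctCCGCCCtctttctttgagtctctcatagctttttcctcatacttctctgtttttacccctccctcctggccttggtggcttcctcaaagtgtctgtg
Itgax: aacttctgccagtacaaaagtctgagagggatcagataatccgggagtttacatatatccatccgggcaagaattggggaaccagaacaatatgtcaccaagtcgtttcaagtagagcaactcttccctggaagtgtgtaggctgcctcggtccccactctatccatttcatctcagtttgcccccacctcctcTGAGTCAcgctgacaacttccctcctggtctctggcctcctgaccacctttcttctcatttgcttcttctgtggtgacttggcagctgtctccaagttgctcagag
The Lama2 window held 1 CArG box and 1 GC box, the Lamb3 window 2 E-boxes, the Itgam window 1 GC box and the Itgax window 1 AP-1 match. The other Lamb3 window, at chr1:193301744-193302043, held none of the 4 motifs. Among all 32851 RefSeq windows of this length, 7.81% held the AP-1 motif, 20.2% the E-box, 35.7% the GC box and 1.63% the CArG box. Of the 19 members with a window, 3, 6, 11 and 2 held them in any of their windows. A member with several windows could match in each, so these counts by gene are not of like unit with the shares by window. These matches describe letters only.

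Between CAF and COF, 5 members were higher in CAF, 7 were lower and 19 did not pass limma's test at an adjusted p under 0.05. Higher in CAF were Itgb2, Itgae, Itga6, Itga9 and Lama1, and lower were Itga8, Lama2, Lamc3, Itga7, Lamb2, Itga2b and Lamc1. The 5 make up 16.1% of the members, against 18.1% of all genes higher, and the 7 make up 22.6%, against 16.7% of all genes lower. The counts over members are therefore near those over all genes. The median log2 difference of the members was 0.10 and that of all genes 0.02.

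Between CSC and TEC, 10 members had higher levels in CSC, another 10 had lower levels, and 11 missed the threshold. Laminin chains of epithelia (Lama3, Lamb3), the hemidesmosome subunits Itga6 and Itgb4, and Itga8 were among the higher, and all 6 leukocyte integrin subunits were among the lower. The members' shares were 32.3% in either direction, against 26.6% of all genes higher and 20.1% lower. Their median difference was -0.05, against 0.00 for all genes.

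Between CAF and CSC, 16 members were higher in CAF, 12 were higher in CSC, and Itga3, Itgal and Lamb2 did not pass. The laminin chains Lama2, Lama4, Lamb1 and Lamc1 were among those higher in CAF, and Itga6, Itgb4, Lama3 and Lamb3 among those higher in CSC. The members' shares were 51.6% and 38.7%, against 33.4% of all genes higher in CAF and 33.1% lower. Their median difference was 0.74, against 0.01 for all genes. This comparison shares its CAF arrays with that of CAF and COF and its CSC arrays with that of CSC and TEC.

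**Figure D1:**
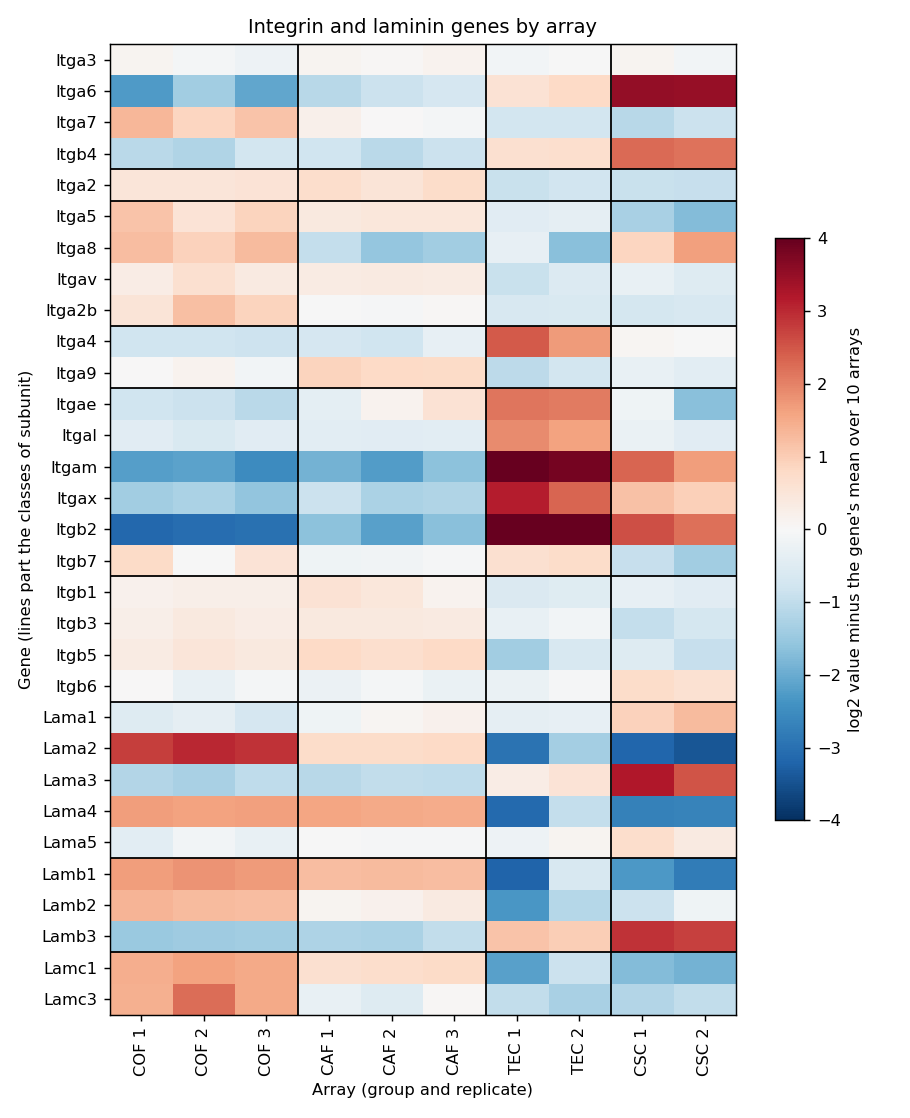
Log2 value of each of the 31 genes (rows, grouped by class of subunit) on each of the 10 arrays (columns) minus the gene's mean over the arrays, in colour from blue (below) to red (above), with colours saturating at 4. Itgb2, Itgam and Itgax are red on the TEC arrays, Itga6, Lama3 and Lamb3 on the CSC arrays, and Lama2 on the COF arrays.

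**Figure D2:**
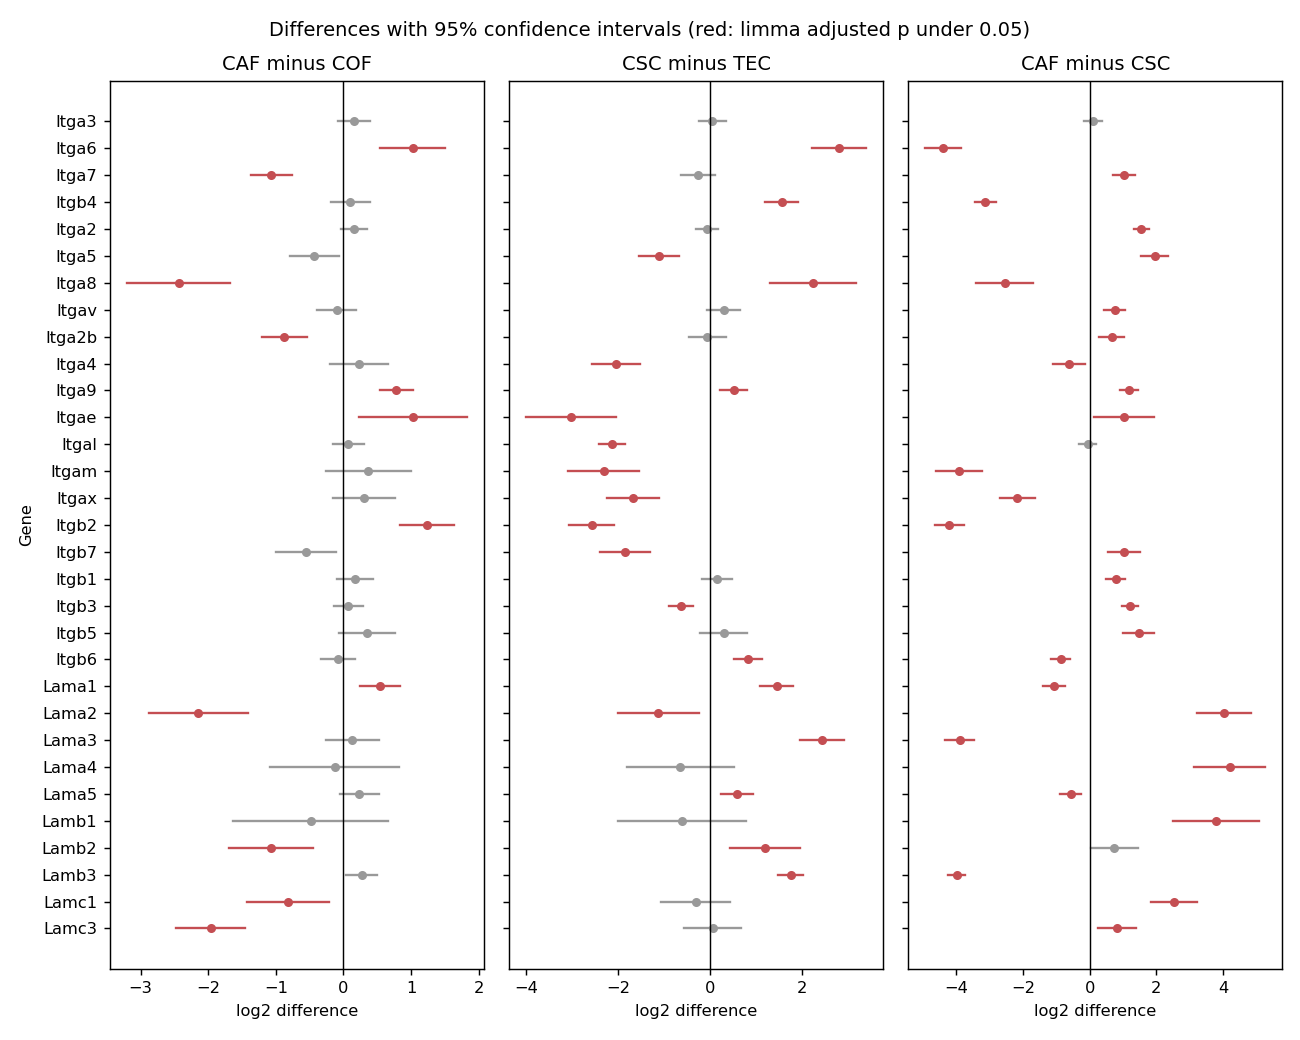
Log2 difference of each gene in the 3 comparisons, with points for the estimate, lines for the 95% confidence interval and red for an adjusted p under 0.05. The widest laminin intervals belong to Lama4 and Lamb1, whose TEC arrays differ most.

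Laminin alpha chains divided into those high in fibroblasts and those high in CSC. Lama2, the alpha chain of muscle and stromal laminin (chr10:26981285-27617191), stood at 12.60, 12.83 and 12.70 on the COF arrays, 10.55, 10.55 and 10.61 on the CAF arrays, 6.86 and 8.45 on the TEC arrays, and 6.66 and 6.41 on the CSC arrays. All COF arrays lay above all CAF arrays, and these above all TEC and CSC arrays. Lama2 was 4.42-fold lower in CAF than in COF (log2 difference -2.14 ± 0.32 (SE), adjusted p = 0.00106) and 16.4-fold higher in CAF than in CSC (log2 difference 4.04 ± 0.36, adjusted p = 1.32e-05). Its log2 difference between CSC and TEC was -1.12 ± 0.39 (adjusted p = 0.0421), and without TEC replicate 2 it was -0.32 (adjusted p = 0.0917) and without TEC replicate 1 -1.92 (adjusted p = 2.16e-05). That call was also lost without any 1 of the COF, CAF or CSC arrays, with adjusted p-values of 0.0570 to 0.169.

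Lama4, an alpha chain of endothelial and stromal laminin, stood at 11.53, 11.44 and 11.49 in COF, 11.41, 11.35 and 11.32 in CAF, 6.72 and 8.88 in TEC, and 7.13 and 7.17 in CSC. Its TEC arrays lay on either side of CSC. Lama4 was 18.4-fold higher in CAF than in CSC (log2 difference 4.21 ± 0.47, adjusted p = 5.28e-05). The CAF minus COF difference was -0.13 (adjusted p = 0.862), with a 95% interval from -1.08 to 0.82. The CSC minus TEC difference was -0.65 (adjusted p = 0.339). It was -1.72 without TEC replicate 1 (adjusted p = 8.58e-06) and 0.43 without TEC replicate 2 (adjusted p = 0.00864), so its sign depended on which TEC array was kept. TEC replicate 2 was also the TEC array with the higher pan-fibroblast median, 11.34 against 8.82. The median of 12 endothelial genes was 6.03 and 5.83 on the TEC arrays and 6.43 to 6.50 on the CAF arrays, against 5.56 and 5.37 on the CSC arrays. Its part in the CAF and CSC difference was not tested.

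Lama3, the alpha chain of hemidesmosome-anchoring epithelial laminin, stood at 4.66, 4.51 and 4.80 in COF, 4.72, 4.84 and 4.82 in CAF, 6.12 and 6.39 in TEC, and 9.04 and 8.34 in CSC. Every fibroblast array lay below both TEC arrays, and these below both CSC arrays. Lama3 was 5.41-fold higher in CSC than in TEC (log2 difference 2.43 ± 0.21, adjusted p = 3.27e-05), and CAF lay 14.9-fold below CSC (log2 difference -3.89 ± 0.19, adjusted p = 3.5e-07). All fibroblast arrays lay under the lower quartile of their array for Lama3, so the size of that fold is uncertain. Lama1, best known from embryonic basement membranes, stood at 4.79, 4.94 and 4.64 in COF, 5.14, 5.37 and 5.46 in CAF, 4.93 and 4.98 in TEC, and 6.22 and 6.58 in CSC. Lama1 was highest in CSC, by 1.45 ± 0.16 over TEC (adjusted p = 1.14e-04), and CAF minus CSC was -1.08 ± 0.15 (adjusted p = 1.73e-04). It was also higher in CAF than in COF by 0.54 ± 0.13 (adjusted p = 0.0120), which became 0.46 (adjusted p = 0.0554) without COF replicate 3.

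Lama5, the alpha chain found widely in epithelial and endothelial basement membranes, moved less. It stood at 6.94, 7.25 and 7.08 in COF, 7.33, 7.32 and 7.32 in CAF, 7.15 and 7.46 in TEC, and 8.06 and 7.72 in CSC. Lama5 was higher in CSC than in TEC by 0.59 ± 0.15 (adjusted p = 0.0124), and CAF minus CSC was -0.57 ± 0.14 (adjusted p = 0.00598). Without CSC replicate 1 these became 0.42 (adjusted p = 0.0797) and -0.40 (adjusted p = 0.0572), and without TEC replicate 1 the former was 0.43 (adjusted p = 0.0691).

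**Figure D3:**
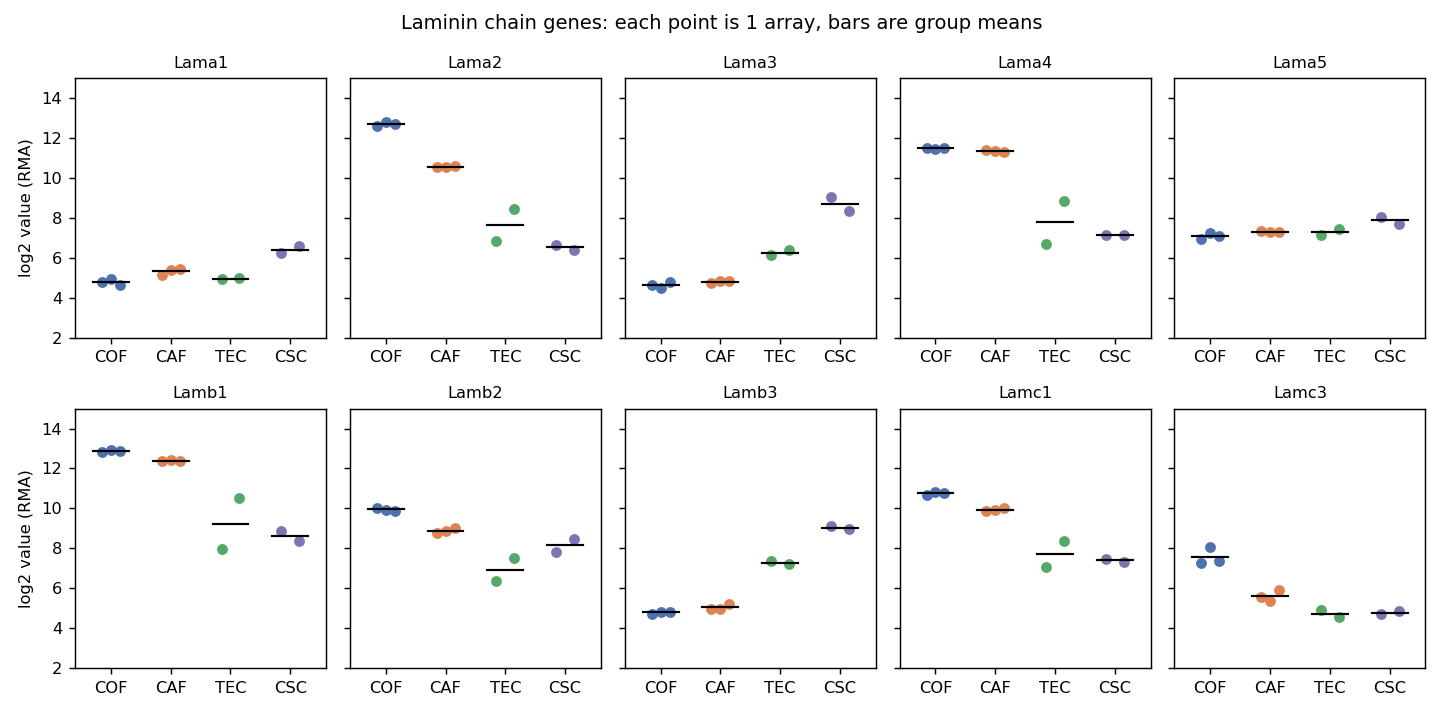
Log2 values (vertical axes) of the 10 laminin genes by group (horizontal axes), 1 point per array, with bars for group means. Lama3 and Lamb3 rise from the fibroblasts through TEC to CSC, while the TEC points of Lama4, Lamb1, Lama2 and Lamc1 lie apart.

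Of the beta chains, Lamb3, which joins Lama3 in epithelial laminin, followed the same order of groups. It stood at 4.73, 4.80 and 4.81 in COF, 4.97, 4.95 and 5.23 in CAF, 7.35 and 7.21 in TEC, and 9.11 and 8.95 in CSC. Lamb3 (chr1:193294353-193343878) was 3.37-fold higher in CSC than in TEC (log2 difference 1.75 ± 0.12, adjusted p = 1.32e-05) and 15.8-fold higher in CSC than in CAF (CAF minus CSC -3.98 ± 0.11, adjusted p = 3.42e-08). Its CAF minus COF difference of 0.27 did not pass (adjusted p = 0.0681). With the TEC and CSC arrays left out of the model it passed (adjusted p = 0.0443).

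Lamb1, the common beta chain of stromal and developmental laminins, stood at 12.83, 12.94 and 12.86 in COF, 12.40, 12.42 and 12.37 in CAF, 7.94 and 10.50 in TEC, and 8.86 and 8.36 in CSC. All COF arrays lay above all CAF arrays, yet the difference of -0.48 ± 0.51 did not pass (adjusted p = 0.531), since the pooled spread includes the TEC arrays. With the TEC and CSC arrays left out of the model the same difference passed (SE 0.07, adjusted p = 9.51e-04), and likewise without either TEC array (adjusted p = 0.0134). CAF lay 13.8-fold above CSC (log2 difference 3.79 ± 0.57, adjusted p = 3.15e-04). CSC minus TEC was -0.61 (adjusted p = 0.455), -1.89 without TEC replicate 1 (adjusted p = 8.88e-05) and 0.67 without TEC replicate 2 (adjusted p = 0.0159).

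Lamb2, a beta chain of neuromuscular, vascular and epithelial basement membranes, stood at 10.03, 9.93 and 9.89 in COF, 8.77, 8.84 and 9.03 in CAF, 6.34 and 7.52 in TEC, and 7.80 and 8.48 in CSC. Lamb2 was 2.09-fold lower in CAF than in COF (log2 difference -1.07 ± 0.28, adjusted p = 0.0153). Without CAF replicate 1, CAF replicate 2 or COF replicate 1 the adjusted p was 0.0550, 0.0515 or 0.0525, at differences of -1.01, -1.05 and -1.03. It was higher in CSC than in TEC by 1.21 ± 0.34 (adjusted p = 0.0161). That difference became 0.62 (adjusted p = 0.0680) without TEC replicate 1 and 0.87 (adjusted p = 0.121) without CSC replicate 2. The CAF minus CSC difference of 0.74 did not pass (adjusted p = 0.0578), and passed without either TEC array (adjusted p = 0.00560) or without CSC replicate 2 (1.08, adjusted p = 0.0352). Without CSC replicate 1 it was 0.40 (adjusted p = 0.361).

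Both gamma chains were lower in CAF than in COF. Lamc1, the gamma chain of most laminins, stood at 10.69, 10.83 and 10.75 in COF, 9.88, 9.92 and 10.001 in CAF, 7.05 and 8.38 in TEC, and 7.48 and 7.33 in CSC. Its CAF minus COF difference was -0.82 ± 0.27 (adjusted p = 0.0419). The groups did not overlap, but the call was lost without any 1 of the 6 fibroblast or 2 CSC arrays, with adjusted p-values from 0.0567 to 0.111. CAF lay 5.78-fold above CSC (log2 difference 2.53 ± 0.30, adjusted p = 7.74e-05). CSC minus TEC was -0.31 (adjusted p = 0.473), -0.98 without TEC replicate 1 (adjusted p = 3.31e-04) and 0.35 without TEC replicate 2 (adjusted p = 0.0394).

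Lamc3, a gamma chain of more restricted distribution, stood at 7.27, 8.08 and 7.37 in COF, 5.57, 5.35 and 5.91 in CAF, 4.88 and 4.56 in TEC, and 4.69 and 4.86 in CSC. Lamc3 was 3.91-fold lower in CAF than in COF (log2 difference -1.97 ± 0.22, adjusted p = 2.66e-04). All TEC and CSC arrays lay under the lower quartile of their array, which was 5.05 to 5.15 there. The CAF minus CSC difference was 0.83 ± 0.25 (adjusted p = 0.0156). It was 0.68 (adjusted p = 0.0514) without CAF replicate 3 and 0.75 (adjusted p = 0.0827) without CSC replicate 1. A further probe set of Lamc3 also fell from COF to CAF, by 2.32 on the log2 scale.

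Among the laminin-binding integrin subunits, Itga6 and Itgb4 were highest in CSC. Itga6 (chr2:71786886-71858427), which pairs with Itgb1 or Itgb4, stood at 5.52, 6.40 and 5.69 in COF, 6.67, 6.91 and 7.10 in CAF, 8.36 and 8.59 in TEC, and 11.31 and 11.27 in CSC. The 4 groups did not overlap. CSC lay 7.03-fold above TEC (log2 difference 2.81 ± 0.26, adjusted p = 4.6e-05) and 21.0-fold above CAF (CAF minus CSC -4.39 ± 0.24, adjusted p = 6.69e-07), and CAF 2.03-fold above COF (log2 difference 1.02 ± 0.21, adjusted p = 0.00568). The CAF and COF call was lost with the most similar arrays averaged, CAF replicates 1 and 2 and COF replicates 1 and 3 (0.94, adjusted p = 0.0559). The pan-epithelial median, up to 6.54 in COF and at least 6.72 in CAF, moved with it, and 8 of the 15 pan-epithelial genes were higher in CAF, among them Epcam by 1.49 ± 0.31 (adjusted p = 0.00526). The keratin gene Krt19 of the same list, named after its values were seen, was lower in CAF (-0.80 ± 0.17, adjusted p = 0.00517). Their part in the Itga6 difference was not tested. All 15 pan-epithelial genes were higher in CSC than in TEC, by a median of 2.23, where 26.6% of all genes were higher. Of 9 basal mammary genes, 5 were higher in CSC than in TEC and 4 did not pass, with Krt14 at 2.05 ± 0.31 (adjusted p = 5.87e-04). The basal median difference was 0.49. The part of these epithelial genes' cells in the CSC and TEC differences of Itga6, Itgb4, Lama3 and Lamb3 was not tested.

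Itgb4, the beta subunit of hemidesmosomes, stood at 4.90, 4.75 and 5.23 in COF, 5.17, 4.91 and 5.11 in CAF, 6.62 and 6.63 in TEC, and 8.22 and 8.15 in CSC. COF and CAF overlapped (log2 difference 0.10, adjusted p = 0.612). CSC lay 2.94-fold above TEC (log2 difference 1.56 ± 0.16, adjusted p = 7.15e-05) and 8.71-fold above CAF (CAF minus CSC -3.12 ± 0.14, adjusted p = 2.57e-07). All CAF arrays lay under the lower quartile of their array for Itgb4, so the size of that fold is uncertain.

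Itga7, the laminin receptor subunit of muscle, ran the other way. It stood at 7.08, 6.62 and 6.88 in COF, 5.94, 5.77 and 5.66 in CAF, 5.0 and 5.01 in TEC, and 4.63 and 4.87 in CSC. Itga7 was 2.09-fold lower in CAF than in COF (log2 difference -1.07 ± 0.13, adjusted p = 4.16e-04) and higher in CAF than in CSC by 1.04 ± 0.15 (adjusted p = 2.38e-04), while CSC minus TEC did not pass (-0.25, adjusted p = 0.235). Of 8 smooth muscle and pericyte genes, 3 were higher in CAF than in COF and 5 did not pass, with Acta2 at 3.08 ± 0.67 (adjusted p = 0.00695).

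Itga3, the laminin receptor subunit that pairs with Itgb1, depended on the probe set. The set used here ranged from 6.37 to 6.72 over all arrays and passed in no comparison (adjusted p = 0.313, 0.760 and 0.467), and its suffix marks a set that may match several transcripts. A further set stood at 5.47, 5.65 and 5.81 in COF, 5.94, 5.70 and 5.86 in CAF, 7.22 and 7.32 in TEC, and 8.27 and 7.97 in CSC. By that set Itga3 was higher in CSC than in TEC by 0.85 (adjusted p = 0.00157 over all probe sets), and CAF minus CSC was -2.29 (adjusted p = 9.87e-07). A remaining set did not pass in any comparison.

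Integrin alpha subunits that bind the RGD motif of fibronectin and related ligands were lower in CAF than in COF for 2 of 4 genes, Itga8 and Itga2b, and 2 did not pass. Of all genes, 16.7% were lower in that comparison. Itga8, whose ligand nephronectin (Npnt) is a basement membrane protein, stood at 6.33, 6.02 and 6.36 in COF, 4.13, 3.54 and 3.72 in CAF, 4.78 and 3.42 in TEC, and 5.96 and 6.73 in CSC. COF and CSC lay above CAF and TEC with no overlap, and all CAF and TEC arrays lay under the lower quartile of their array. Itga8 was 5.42-fold lower in CAF than in COF (log2 difference -2.44 ± 0.34, adjusted p = 7.16e-04), the largest CAF and COF difference of any member. CSC lay 4.74-fold above TEC (log2 difference 2.24 ± 0.41, adjusted p = 0.00192) and 5.85-fold above CAF (CAF minus CSC -2.55 ± 0.38, adjusted p = 2.98e-04). Npnt was also higher in CSC than in TEC, by 1.39 ± 0.13 (adjusted p = 4.55e-05).

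Itga5, the fibronectin receptor subunit, stood at 8.87, 8.28 and 8.64 in COF, 8.12, 8.20 and 8.19 in CAF, 7.28 and 7.38 in TEC, and 6.43 and 6.01 in CSC. Itga5 was 2.17-fold lower in CSC than in TEC (log2 difference -1.12 ± 0.19, adjusted p = 0.00141) and 3.87-fold higher in CAF than in CSC (log2 difference 1.95 ± 0.18, adjusted p = 1.52e-05). The CAF minus COF difference of -0.43 did not pass (adjusted p = 0.0661). It was -0.59 without COF replicate 2 (adjusted p = 0.0123), and without either CSC array the adjusted p was 0.0492. Without COF replicate 1 it was -0.29 (adjusted p = 0.222).

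Itgav, the alpha subunit shared by vitronectin receptors, stood at 11.74, 12.08 and 11.80 in COF, 11.77, 11.79 and 11.76 in CAF, 10.55 and 10.90 in TEC, and 11.13 and 10.91 in CSC. CAF lay above CSC by 0.75 ± 0.14 (adjusted p = 0.00134), while CAF minus COF (-0.10, adjusted p = 0.615) and CSC minus TEC (0.30, adjusted p = 0.148) did not pass. The latter was 0.47 without TEC replicate 2 (adjusted p = 0.0391) and 0.12 without TEC replicate 1 (adjusted p = 0.591). A further probe set of Itgav stood at 8.96, 9.09 and 9.05 in COF and at 7.49, 7.51 and 7.54 in CAF, a difference of -1.52 (adjusted p = 8.13e-04 over all probe sets). Its probe sets thus differed in call between CAF and COF.

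Itga2b, the fibrinogen receptor subunit of platelets, was 1.83-fold lower in CAF than in COF (log2 difference -0.87 ± 0.15, adjusted p = 0.00202) and higher in CAF than in CSC by 0.67 ± 0.17 (adjusted p = 0.00605). It stood at 8.50, 9.17 and 8.86 in COF, 7.95, 7.92 and 8.03 in CAF, 7.33 and 7.38 in TEC, and 7.26 and 7.34 in CSC. Of 6 platelet genes measured, Pf4 and Ppbp were higher in CAF than in COF, by 0.93 ± 0.16 and 1.99 ± 0.15 (adjusted p = 0.00189 and 3.86e-05), and Gp1bb was lower (-0.95 ± 0.23, adjusted p = 0.0118). The platelet median was 6.13 to 6.41 on COF and 6.34 to 6.44 on CAF arrays, 6.22 and 5.91 on TEC and 5.80 and 5.53 on CSC arrays, and its part in the Itga2b difference was not tested.

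Itga2, a collagen receptor subunit, separated the fibroblast arrays from the TEC and CSC arrays. It stood at 6.34, 6.37 and 6.41 in COF, 6.58, 6.40 and 6.60 in CAF, 4.98 and 5.11 in TEC, and 4.99 and 4.96 in CSC. CAF lay 2.94-fold above CSC (log2 difference 1.55 ± 0.10, adjusted p = 1.41e-06), and neither CAF minus COF (0.16, adjusted p = 0.208) nor CSC minus TEC (-0.07, adjusted p = 0.619) passed. All TEC and CSC arrays lay under the lower quartile of their array for Itga2, so the size of that fold is uncertain.

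Itga9, a receptor subunit for tenascin and osteopontin, was highest in CAF. It stood at 7.57, 7.70 and 7.46 in COF, 8.44, 8.33 and 8.30 in CAF, 6.51 and 6.83 in TEC, and 7.24 and 7.12 in CSC. CAF lay above COF by 0.78 ± 0.11 (adjusted p = 7.41e-04) and above CSC by 1.18 ± 0.12 (adjusted p = 3.36e-05). CSC minus TEC was 0.51 ± 0.13 (adjusted p = 0.0116), and became 0.36 (adjusted p = 0.0623) without TEC replicate 1 and 0.45 (adjusted p = 0.0575) without CSC replicate 1. The other probe sets of Itga9 did not pass between CAF and COF. Its ligand tenascin (Tnc) was higher in CAF than in COF by 3.18 ± 0.81 (adjusted p = 0.0143), with 8.06, 11.27 and 9.89 in COF and 12.86, 12.82 and 13.08 in CAF. Tnc was among the 4 of 15 other integrin ligands that were higher there, and osteopontin (Spp1) was not.

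**Figure D4:**
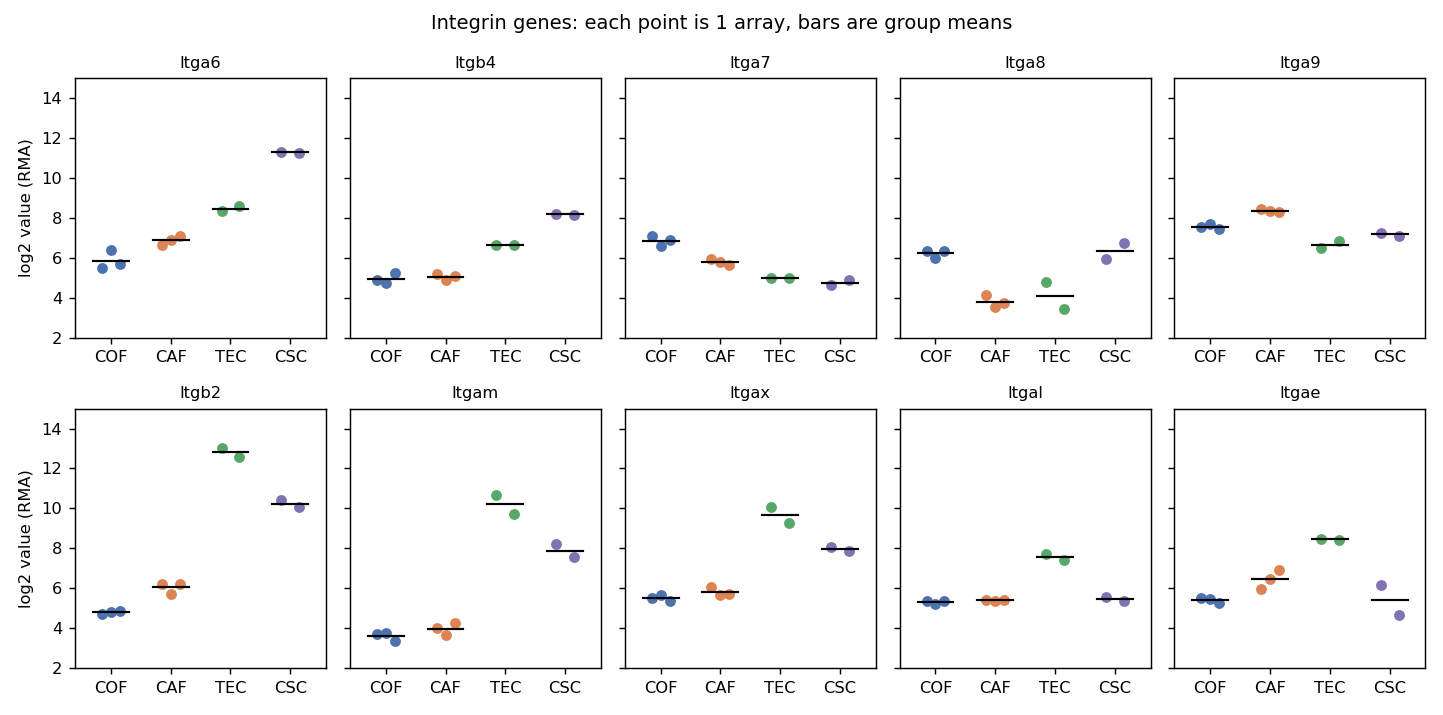
Log2 values (vertical axes) of 10 integrin genes by group (horizontal axes), 1 point per array, with bars for group means. Itga6 and Itgb4 are highest in CSC, Itgb2, Itgam, Itgax, Itgal and Itgae in TEC, and Itga8 is low in CAF and TEC.

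Of the remaining beta subunits, Itgb1, the partner of most alpha subunits, stood at 10.87, 10.91 and 10.93 in COF, 11.26, 11.15 and 10.83 in CAF, 10.10 and 10.21 in TEC, and 10.37 and 10.23 in CSC. Itgb1 was higher in CAF than in CSC by 0.78 ± 0.13 (adjusted p = 6.44e-04) and passed in neither other comparison (adjusted p = 0.304 and 0.424). Itgb5, a vitronectin receptor subunit, stood at 10.67, 10.83 and 10.72 in COF, 11.13, 10.99 and 11.11 in CAF, 8.93 and 9.69 in TEC, and 9.80 and 9.41 in CSC. CAF lay 2.77-fold above CSC (log2 difference 1.47 ± 0.20, adjusted p = 2.05e-04). CAF lay above COF on all arrays, but 0.34 did not pass (adjusted p = 0.193). It did so with the TEC and CSC groups left out (adjusted p = 0.00864), and also without either TEC array (adjusted p = 0.0359). CSC minus TEC was 0.30 (adjusted p = 0.314), 0.68 without TEC replicate 2 (adjusted p = 0.00896) and -0.09 without TEC replicate 1 (adjusted p = 0.720), so its sign also depended on the TEC array kept.

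Itgb3, the partner of Itga2b and Itgav, stood at 5.97, 6.11 and 6.03 in COF, 6.12, 6.12 and 6.09 in CAF, 5.43 and 5.62 in TEC, and 4.79 and 5.01 in CSC. Itgb3 was lower in CSC than in TEC (log2 difference -0.63 ± 0.11, adjusted p = 0.00183), but with the fibroblast arrays left out of the model it did not pass (adjusted p = 0.0620). CAF lay 2.32-fold above CSC (log2 difference 1.21 ± 0.10, adjusted p = 1.08e-05). Itgb6, an epithelial subunit, was higher in CSC than in TEC by 0.83 ± 0.14 (adjusted p = 0.00109), and CAF minus CSC was -0.87 ± 0.13 (adjusted p = 2.58e-04). It stood at 4.86, 4.53 and 4.75 in COF, 4.60, 4.75 and 4.56 in CAF, 4.57 and 4.79 in TEC, and 5.57 and 5.44 in CSC. A further Itgb6 set gave 1.86 and -1.81 in the same comparisons.

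**Figure D5:**
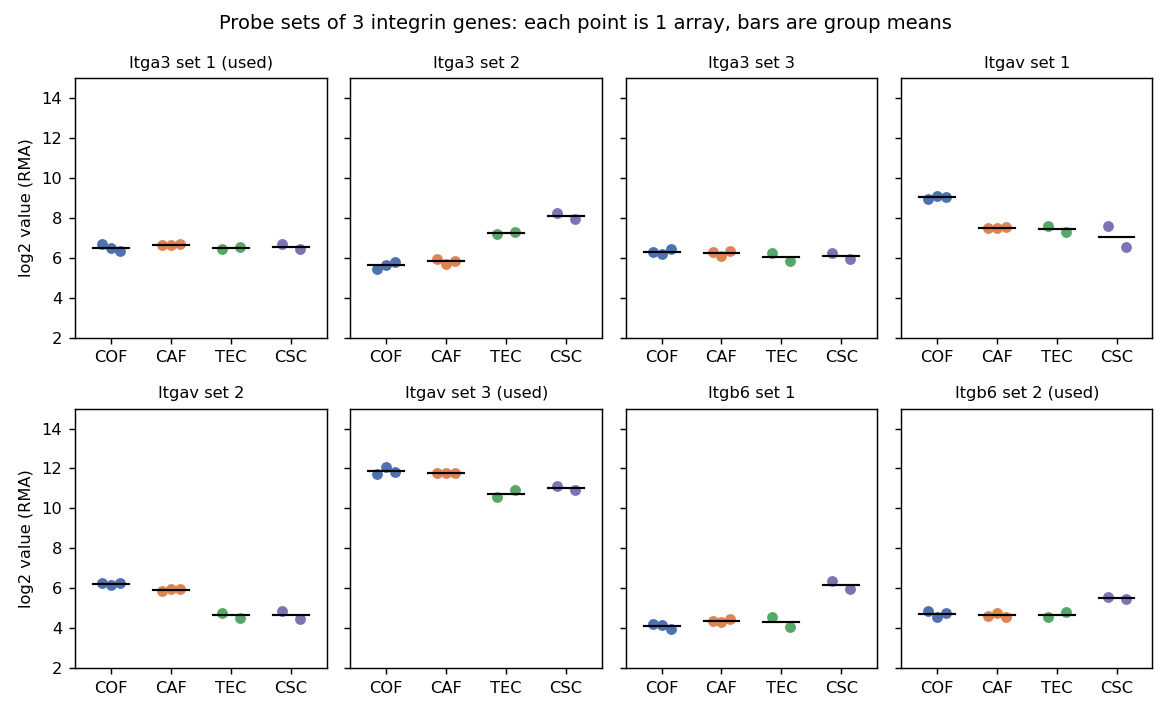
Log2 values (vertical axes) of every probe set of Itga3, Itgav and Itgb6 by group (horizontal axes), 1 point per array, with bars for group means. The Itga3 set in use is level across groups where another stands at 8.27 and 7.97 in CSC.

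Every leukocyte integrin subunit, 6 of 6, was lower in CSC than in TEC, where 20.1% of all genes were lower. Itgb2, the common beta subunit of the leukocyte family, stood at 4.71, 4.81 and 4.87 in COF, 6.22, 5.69 and 6.20 in CAF, 13.04 and 12.59 in TEC, and 10.43 and 10.06 in CSC. The 4 groups did not overlap. Itgb2 was 5.96-fold lower in CSC than in TEC (log2 difference -2.57 ± 0.22, adjusted p = 2.97e-05), and CAF lay 18.4-fold below CSC (log2 difference -4.20 ± 0.20, adjusted p = 2.75e-07) and 2.36-fold above COF (log2 difference 1.24 ± 0.18, adjusted p = 8.27e-04).

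Itgam, the alpha subunit of the myeloid complement receptor, stood at 3.69, 3.74 and 3.36 in COF, 4.0, 3.66 and 4.23 in CAF, 10.69 and 9.70 in TEC, and 8.22 and 7.54 in CSC. CSC lay 4.97-fold below TEC (log2 difference -2.31 ± 0.34, adjusted p = 5.42e-04). CAF lay 15.1-fold below CSC (log2 difference -3.92 ± 0.31, adjusted p = 6.3e-06). All fibroblast arrays lay under the lower quartile of their array for Itgam, so the size of that fold is uncertain. Itgax, its neighbour on chromosome 7 and known from dendritic cells, stood at 5.53, 5.64 and 5.34 in COF, 6.06, 5.64 and 5.71 in CAF, 10.06 and 9.25 in TEC, and 8.08 and 7.85 in CSC. CSC minus TEC was -1.68 ± 0.25 (adjusted p = 5.75e-04) and CAF minus CSC -2.16 ± 0.23 (adjusted p = 3.69e-05). For these genes the fibroblast groups overlapped or did not pass (adjusted p = 0.366 and 0.306).

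Itgal, the alpha subunit of the receptor for Icam ligands on lymphocytes, stood at 5.36, 5.21 and 5.36 in COF, 5.39, 5.36 and 5.40 in CAF, 7.72 and 7.42 in TEC, and 5.53 and 5.35 in CSC. Both TEC arrays lay above all others. CSC lay 4.37-fold below TEC (log2 difference -2.13 ± 0.12, adjusted p = 6.53e-06), whereas CAF minus CSC was -0.06 (adjusted p = 0.646). Itga4, which pairs with Itgb1 or Itgb7, stood at 4.43, 4.43 and 4.40 in COF, 4.57, 4.45 and 4.91 in CAF, 7.70 and 6.93 in TEC, and 5.32 and 5.21 in CSC. CSC lay 4.14-fold below TEC (log2 difference -2.05 ± 0.23, adjusted p = 1.27e-04), and CAF minus CSC was -0.62 ± 0.21 (adjusted p = 0.0269). Without CAF replicate 1, CAF replicate 2, CSC replicate 1 or CSC replicate 2 this last had adjusted p-values of 0.0721, 0.0843, 0.116 and 0.0699.

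Itgae, the subunit of intraepithelial lymphocytes and some dendritic cells, stood at 5.52, 5.45 and 5.25 in COF, 5.95, 6.46 and 6.91 in CAF, 8.46 and 8.42 in TEC, and 6.16 and 4.66 in CSC. CSC lay 8.16-fold below TEC (log2 difference -3.03 ± 0.43, adjusted p = 4.61e-04). CAF lay above COF by 1.03 ± 0.35 (adjusted p = 0.0484), and this call was lost without any 1 of CAF replicates 2 and 3, the 3 COF arrays or the 2 TEC arrays, with adjusted p-values from 0.0508 to 0.164. CAF lay above CSC by 1.03 ± 0.39 (adjusted p = 0.043), and without CSC replicate 2, the lowest array, by 0.28 (adjusted p = 0.454), or by 1.78 without CSC replicate 1 (adjusted p = 0.00156). Leaving out CAF replicate 2 or 3 or any 1 COF array also ended that call, with adjusted p-values from 0.0572 to 0.127.

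Itgb7, the partner of Itgae and Itga4, stood at 8.17, 7.41 and 7.97 in COF, 7.23, 7.28 and 7.37 in CAF, 8.07 and 8.16 in TEC, and 6.51 and 6.02 in CSC. COF and TEC overlapped for Itgb7, while the leukocyte median was 5.25 to 5.63 on COF and 12.64 and 12.18 on TEC arrays. CSC lay 3.62-fold below TEC (log2 difference -1.85 ± 0.24, adjusted p = 2.56e-04) and CAF above CSC by 1.03 ± 0.22 (adjusted p = 0.00249). The CAF minus COF difference of -0.55 (adjusted p = 0.0538) passed without COF replicate 2 (-0.78, adjusted p = 0.00499) or without either CSC array (adjusted p = 0.0439), and was -0.39 without COF replicate 1 (adjusted p = 0.186).

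Between CSC and TEC the leukocyte marker list moved with these subunits. All 12 of its genes were lower in CSC, by a median of -2.50. Against COF, 7 of 12 were higher in CAF, by a median of 1.09. Of the 6 subunits, 2 were higher there and 4 did not pass. All 12 markers were lower in CAF than in CSC, but only 3 subunits were, while 2 were higher and 1 did not pass. Ptprc, the pan-leukocyte marker, stood at 13.38 and 13.09 in TEC and at 11.36 and 10.61 in CSC, and was higher in CAF than in COF by 1.91 ± 0.49 (adjusted p = 0.0153). Of 14 macrophage genes, 5 were higher and 4 lower in CSC than in TEC, while 10 were higher in CAF than in COF and 4 did not pass, with a median of 1.203. Itgb2 and Itgae were higher in CAF too, while Itgam, Itgax, Itgal and Itgb7 did not pass between CAF and COF. The macrophage list's defining genes Adgre1 and Cd68 were among its 4 that did not pass (0.21, adjusted p = 0.172, and 0.05, adjusted p = 0.907). Of 10 lymphocyte genes, 7 were lower in CSC than in TEC and 3 did not pass. The part of these cells' RNA in the leukocyte integrin differences was not tested.

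Genes of related pathways gave a wider picture. Of 62 partner genes measured among 72 listed, 11 were higher and 9 lower in CAF than in COF, 19 higher and 25 lower in CSC than in TEC, and 35 higher and 16 lower in CAF than in CSC. Their median differences were 0.03, -0.24 and 0.50. Between CAF and COF these are 17.7% higher and 14.5% lower, near the 18.1% and 16.7% of all genes. Between CSC and TEC they are 30.6% and 40.3%, against 26.6% and 20.1%, and between CAF and CSC 56.5% and 25.8%, against 33.4% and 33.1%. Without either TEC array, 32 in place of 20 partners passed between CAF and COF.

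Among 14 other basement membrane genes, 3 were lower in CAF than in COF and 11 did not pass. That is 21.4% lower, near the 16.7% of all genes. The 3 were the type IV collagen chains Col4a5 (-1.74 ± 0.23, adjusted p = 5.38e-04), Col4a4 (-0.88 ± 0.12, adjusted p = 7.9e-04) and Col4a3 (-0.88 ± 0.15, adjusted p = 0.00175). Between CSC and TEC, 4 were higher, among them Col4a5 by 3.03 ± 0.28 (adjusted p = 4.33e-05) and Col4a6 by 2.08 ± 0.18 (adjusted p = 3.65e-05), and 3 were lower, among them the laminin-binding protein Nid2 (-1.60 ± 0.32, adjusted p = 0.00291). The counts between CSC and TEC are 28.6% higher and 21.4% lower, near the 26.6% and 20.1% of all genes. Between CAF and CSC, 9 were higher in CAF and 4 in CSC, or 64.3% and 28.6%, against 33.4% and 33.1% of all genes. Nid2 lay 4.0 ± 0.29 higher in CAF (adjusted p = 3.8e-06) and Col4a6 was higher in CSC (CAF minus CSC -3.61 ± 0.17, adjusted p = 2.65e-07).

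Of 10 hemidesmosome and laminin co-receptor genes, 7 were higher in CSC than in TEC and 3 did not pass. The 7 are 70.0%, against 26.6% of all genes higher. Col17a1, the hemidesmosome collagen, rose by 2.65 ± 0.21 (adjusted p = 2.41e-05) and Cd151, the tetraspanin that binds laminin receptors, by 1.63 ± 0.16 (adjusted p = 5.49e-05). Between CAF and COF, Cd151 and the linker plectin (Plec) were higher in CAF, by 0.92 ± 0.13 (adjusted p = 7.85e-04) and 0.59 ± 0.10 (adjusted p = 0.00236). The tetraspanin Cd9 was lower in CAF (-0.89 ± 0.09, adjusted p = 1.14e-04).

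Of 15 other integrin ligands, 4 were higher and 3 lower in CAF than in COF. These counts are 26.7% and 20.0%, against 18.1% and 16.7% of all genes. Besides Tnc, the higher ligands included Edil3 (1.21 ± 0.22, adjusted p = 0.00258), a ligand of vitronectin receptors, and Cdh1 (1.85 ± 0.39, adjusted p = 0.0063). Among the lower were vitronectin itself (Vtn, -1.46 ± 0.26, adjusted p = 0.00252) and Icam2 (-0.83 ± 0.10, adjusted p = 3.97e-04). Between CSC and TEC, 3 were higher, among them Mfge8 (2.21 ± 0.22, adjusted p = 6.82e-05), and 7 were lower, among them fibronectin (Fn1, -1.72 ± 0.26, adjusted p = 5.98e-04). Those counts are 20.0% and 46.7%, against 26.6% and 20.1% of all genes. In CAF against CSC, 11 were higher and 3 lower, with Vtn at 3.99 ± 0.29 (adjusted p = 3.78e-06) and the Itgae ligand Cdh1 at -5.77 ± 0.44 (adjusted p = 5.18e-06). The shares there were 73.3% and 20.0%, against 33.4% and 33.1% of all genes.

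Of 23 genes for proteins that regulate integrins or link them to actin, 15 were lower and 5 higher in CSC than in TEC. These counts are 65.2% and 21.7%, against 20.1% and 26.6% of all genes. Zyxin (Zyx, -2.16 ± 0.20, adjusted p = 4.03e-05) and talin (Tln1, -1.49 ± 0.14, adjusted p = 4.98e-05) were lower, and the kinase Src was higher (1.40 ± 0.13, adjusted p = 4.33e-05). Fermt3, the integrin activator of blood cells, was lower in CSC too (-1.75 ± 0.43, adjusted p = 0.00840), and CAF minus CSC was -3.28 ± 0.39 (adjusted p = 7.66e-05). Between CAF and COF, 5 were higher and 2 lower, with Lims1 at 0.60 ± 0.12 (adjusted p = 0.00420) and paxillin (Pxn) at -0.60 ± 0.11 (adjusted p = 0.00343). The shares there were 21.7% and 8.7%, against 18.1% and 16.7% of all genes.

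Across the members, the highest group mean lay in COF for 10 genes, in CAF for 6, in TEC for 7 and in CSC for 8, which is 32.3%, 19.4%, 22.6% and 25.8% of the members, against 26.5%, 23.4%, 22.8% and 27.3% of all genes. On all arrays of a group, 7 members lay under the lower quartile in COF, 6 in CAF, 6 in TEC and 4 in CSC. These were Itga8 in CAF and TEC, Lamc3 in TEC and CSC, Itgb4 in CAF, Lama3, Itgam, Itga4 and Itgb6 in both fibroblast groups, Itgb2, Lama1 and Lamb3 in COF, Itgb6 and Lama1 in TEC, Itgb3 in CSC, and Itga2 and Itga7 in both TEC and CSC. Folds against such groups are less certain in size. For 14 members with several probe sets, all sets agreed in call for 12 between CAF and COF, 12 between CSC and TEC and 10 between CAF and CSC. No member had sets that passed in opposite directions.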

How the data were processed

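The authors made the deposited log2 values with RMA, per the submitters' processing notes, from 100 ng of total RNA per array, per the labels; the sources used here do not give the RMA version. RMA corrects background, equalises array distributions and summarises the probes of a set, so values are relative within an array platform and only groups within a gene were compared. Of 22690 probe sets, 20393 had 1 symbol, 691 several and 1606 none; the single-symbol sets gave 12394 genes. All 31 members matched RefSeq gene identifiers.

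A linear model with 1 mean per group was fitted to all 10 arrays by limma 3.58.1 (lmFit, eBayes; R version 4.3.3), so that the groups share 1 estimate of the spread. Benjamini-Hochberg adjustment ran over all 12394 genes of a comparison. Errors after ± are moderated standard errors, and tests are two-sided. The number of arrays limits the precision. Array values are given for members that passed with a log2 difference of at least 1 in any comparison and for Itga6, Itgb1, Itgb4 and Lama5; the other members were given too. Up to 4 partner genes with the smallest adjusted p are named per list and comparison; Tnc and Fermt3 lie outside this rule and were picked with their values in view. The members, partner and marker lists were chosen with earlier results of these data known. Figures and motif counts used Python 3.11.15. The pipeline was tested on simulated data.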

Additional observations from a re-analysis of the deposited data

How the results depend on the processing

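Of 1824 member results recomputed under another setting, 1705 kept their side of the threshold, 71 no longer passed, 42 newly passed and 6 turned sign with a pass in at least 1 of the settings. Of the 1705, 15 turned sign without passing in either setting, and 1690 kept their direction too. The 6 were Itga3 in CAF minus CSC (-0.68 with all probe sets of a gene averaged, -2.29 without sets ending in _x_at or _s_at), Itgb4 in CAF minus COF (-0.21 with array weights), and, without TEC replicate 2, CSC minus TEC of Lama4 (0.43), Lamb1 (0.67) and Lamc1 (0.35), which were -1.72, -1.89 and -0.98 without TEC replicate 1. The count of members passing between CAF and COF, 12, became 23 with array weights, which gave COF replicate 3 a weight of 40.7, and 7 with the closest arrays averaged. Without the dimmest 30% of genes, 19 members were tested and 11 passed between CSC and TEC (20 before) and 17 between CAF and CSC (28 before). All 19 kept their call in both comparisons, so these counts fell because fewer members were tested. Partner counts, 20 for CAF minus COF, became 36 with only the fibroblast arrays, 44 with array weights, 8 with the closest arrays averaged and 6 with a log2 difference of at least 1 required. For CSC minus TEC the 44 became 25 with only those arrays and 29 with the size required, and for CAF minus CSC the 51 became 33 with the size required. Averaging the closest arrays ended the CAF and COF calls of Itga6, Itgae, Lama1, Lamb2 and Lamc1 (adjusted p = 0.0559 to 0.203), and fitting only the TEC and CSC arrays ended their calls for Itga9, Itgb3, Lama2, Lama5 and Lamb2 (0.0620 to 0.209). The causes were not tested. Leaving out 1 array gave 9 to 13, 17 to 24 and 25 to 29 members and 15 to 32, 32 to 42 and 44 to 53 partners. Over all genes, 4309, 5786 and 8247 passed. For CAF minus COF this became 8632 with array weights, 1805 with the closest arrays averaged, 2638 at an adjusted p under 0.01 and 1030 with the size required. It became 3013 and 2377 for CSC minus TEC with only those arrays and with the size required, and 3417 for CAF minus CSC with the size required.

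With the replicate number as a block, 10, 19 and 27 members and 20, 38 and 49 partners passed. Same-numbered COF and CAF arrays deviated together with correlations of 0.127, 0.006 and -0.082, and TEC and CSC arrays with -0.057, so the numbers were not taken to pair samples, and not every array correlated best with its own number. The block ended the calls of Itgae (adjusted p = 0.0772) and Lamc1 (0.0555) between CAF and COF, of Lama2 (0.0559) between CSC and TEC and of Itgae (0.0955) between CAF and CSC. With 2 and 3 arrays a group, leaving 1 array assumes that a lone array varies like the other groups. Groups of this size allow no check for single outlying arrays.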
